A study of Mus musculus with 6 samples.

Results

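Of the 49548 genes listed in the deposited table, 7 were chosen by name as acute-phase genes: Saa1, Saa2, Saa3, Hp, Orm1, Ptx3 and Steap4. The first 6 encode secreted proteins and Steap4 encodes a membrane enzyme. In the synovial fibroblasts (SFs) measured here, 4 of the 7 (Saa3, Hp, Ptx3 and Steap4) had enough reads to be tested, and 3 (Saa1, Saa2 and Orm1) were at or near 0 in every library. Ptx3 was among the most abundant transcripts of these cells and did not pass the test. Saa3 and Hp were lower with amisulpride at each of the 3 replicate numbers, and passed correction for multiple testing only when libraries were matched by replicate number. Steap4 was scarce and passed no test.

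All 6 cultures were SFs from ankle joints of hTNFtg mice, which carry a human TNF transgene and develop arthritis. The mice were 8 weeks old and CBA C57BL/6J by strain, and CD45+ cells, the leukocytes, were depleted at passage 1. Untreated cultures (n = 3) were compared with cultures given 500 μM amisulpride, an antipsychotic drug that blocks dopamine receptors, for 48 hours (n = 3). The comparison asks which transcripts of SFs already exposed to TNF differ when the drug is present. Both groups carry the transgene, so no value below compares arthritic with healthy cells. The labels give the controls as not treated, whereas the methods speak of vehicle and of a drug stock in DMSO, so if the labels hold, drug and solvent cannot be told apart.

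Acute-phase proteins are plasma proteins whose concentration changes sharply in infection, injury and inflammation. Most are made by hepatocytes after IL-6 acts through gp130 and STAT3 and IL-1 acts through NF-κB, with the C/EBP factors binding many of their promoters. A few are also made outside the liver by fibroblasts, macrophages, adipocytes and endothelial cells, and Saa3 and Ptx3 are the usual examples of such local production in the mouse.

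Values are normalised counts, which are read counts per gene scaled by the authors so that libraries can be compared. The 6 libraries held 3832980 to 4504242 normalised counts each, or about 2520000 to 4710000 reads, and a gene with no read at all could have had up to 2.50 to 5.37 normalised counts, the worth of 3 reads. Amisulpride replicate 3 was the shallowest library and stood apart, with correlations across tested genes of 0.882 to 0.909 with the others, against 0.903 to 0.959 among the other 5. Each gene described here with an adjusted p under 0.05, with or without the replicate block explained below, is also given without this library. Some other results are given only with it, among them those for Lum, Serpina3n, Cx3cr1 and Ptprc and the correlations between genes. The study's own thresholds, a log2 fold change of at least 1 in size and an unadjusted p under 0.05, were passed by 5.70% of the 12614 genes tested with limma, and an adjusted p under 0.05 by 0.285% (0.19% lower and 0.0951% higher).

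The labels number the replicates 1 to 3 in both groups, and libraries with the same number deviated from their group means together. A second limma fit therefore compared libraries within each replicate number (the replicate block), and 2.08% of genes had an adjusted p under 0.05 in it (1.05% lower and 1.03% higher). Its values are given beside those of the fit without the block where they changed the call of a gene described here.

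The serum amyloid A genes lie together on chromosome 7. They encode small lipoprotein-associated proteins that displace other apolipoproteins from high-density lipoprotein and attract leukocytes. Saa1 (ENSMUSG00000074115) lies at chr7:46740497-46742980 on the minus strand and Saa2 (ENSMUSG00000057465) at chr7:46751790-46754313 on the plus strand, in the mm10 build, and both are the classical liver forms. Saa3 (ENSMUSG00000040026), at chr7:46711998-46715700 on the minus strand, is the form made mainly outside the liver. The 3 are protein-coding genes, and the library kit read the 3′ ends of their transcripts. In the last 300 bases of the annotated transcripts, Saa3 shared no 25-base word with Saa1, Saa2 or Saa4, so reads placed there would not be split between it and the others. By contrast, 27.9% of such words of Saa1 were also in Saa2.

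Nearly all serum amyloid A signal came from Saa3. In the untreated replicates 1, 2 and 3 it was at 6122, 6646 and 2886 normalised counts. With amisulpride it was at 3569, 3434 and 905. Saa1 was at 3, 3 and 0 in the untreated libraries and at 0, 3 and 0 in the treated ones, and Saa2 was at 0 in all 6, so no difference was detectable for either at this depth. Together with Saa4, the genes of the family other than Saa3 summed to at most 4 normalised counts in any library.

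The promoters of Saa3, abundant here, and Saa1, barely detected, are shown because they hardly resemble each other. The first lines give the 250 bases before each transcript start, read 5′ to 3′ on the strand of the gene from the RefSeq annotation of GRCm38.p6, with matches to the C/EBP motif TTGCNNAA on either strand in capitals.
Saa3 promoter, chr7:46715677-46715926 (−): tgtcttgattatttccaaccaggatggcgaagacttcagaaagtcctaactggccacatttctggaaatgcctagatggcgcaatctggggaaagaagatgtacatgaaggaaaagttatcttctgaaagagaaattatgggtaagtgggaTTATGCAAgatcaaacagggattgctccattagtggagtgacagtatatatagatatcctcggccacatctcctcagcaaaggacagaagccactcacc
Saa1 promoter, chr7:46742981-46743230 (−): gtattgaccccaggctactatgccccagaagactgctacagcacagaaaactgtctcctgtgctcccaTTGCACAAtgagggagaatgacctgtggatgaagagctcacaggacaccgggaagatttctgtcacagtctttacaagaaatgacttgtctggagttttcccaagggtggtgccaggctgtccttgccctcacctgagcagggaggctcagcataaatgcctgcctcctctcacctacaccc
The Saa1 promoter was 94.8% identical to that of Saa2 over the aligned length, but only 48.5% identical to that of Saa3. Promoter pairs among the Saa genes, Ptx3 and Steap4 that cross families were 45.2% to 47.6% identical, little below the figure for Saa1 and Saa3.

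A C/EBP match was present in the promoter window of each of the 5 members found in the RefSeq promoter table. Hp and Orm1 were not matched. The same motif was in 10.8% of all 32851 windows of 300 bases (250 before the start and 50 after it). The 30 bases around each match are shown to let the matches be compared.
Saa1, chr7:46743144-46743173 (−): ctgtgctcccaTTGCACAAtgagggagaat
Saa2, chr7:46751639-46751668 (+): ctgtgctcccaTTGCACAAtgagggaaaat
Saa3, chr7:46715757-46715786 (−): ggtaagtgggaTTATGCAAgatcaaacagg
Ptx3, chr3:66219819-66219848 (+): gtggtttaacaTTGTGCAAcctcttcagct
Steap4, chr5:7960374-7960403 (+): cacagctcctcTTGCGAAAtcaagcgggcc
Capitals again mark the match, which reads on the strand of the gene in Saa1, Saa2 and Steap4 and on the other strand in Saa3 and Ptx3. Counted back from the transcript start, it began at base −182 in Saa1, −183 in Saa2, −99 in Saa3, −57 in Ptx3 and −87 in Steap4. A STAT motif (TTCNNNGAA) was in the window of Steap4 alone among the 5 and in 8.30% of all windows, and the NF-κB motif was in the windows of Ptx3 and Steap4 and in 4.51% of all. An AP-1 motif (TGANTCA) was in none of the 5 and in 7.81% of all. Both strands were searched, and these matches are descriptions of the letters, not binding sites.

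Saa3 was lower with amisulpride at every replicate number. It averaged 5218 ± 2036 normalised counts in untreated SFs and 2636 ± 1501 with the drug (SD, n = 3 each). The treated library held 58.3%, 51.7% and 31.4% of the untreated one at replicate numbers 1, 2 and 3. The groups overlapped, because untreated replicate 3 was below treated replicates 1 and 2. In bulk RNA, fewer producing cells and less RNA per cell cannot be told apart.

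The log2 fold change of Saa3 was −1.13 ± 0.51 (SE, 95% interval −2.25 to −0.02), on the scale of log2(normalised count + 1). This passed the study's thresholds with an unadjusted p of 0.0461 in limma, and not the correction over all genes (adjusted p = 0.452). The fit with the replicate block gave the same fold change with an SE of 0.28 (95% interval −1.73 to −0.54, adjusted p = 0.0459), so Saa3 fell within replicate numbers. Without the block the fold change no longer passed the unadjusted threshold when amisulpride replicate 3 was left out (−0.48, adjusted p = 0.624 in limma), nor without untreated replicate 1 (−0.97, adjusted p = 0.756) or untreated replicate 2 (−0.91, adjusted p = 0.693). With the block and without replicate number 3 it was −0.87, with an adjusted p of 0.156 in limma, and leaving out number 1 or 2 gave adjusted p values of 0.167 and 0.181.

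Hp (ENSMUSG00000031722, chr8:109575128-109579172, minus strand) encodes haptoglobin, which binds free haemoglobin and so limits its oxidative damage. Its level was 645, 817 and 240 normalised counts in the untreated replicates 1, 2 and 3. It was 278, 487 and 64 in the treated ones. The groups overlapped here too, with replicate number 3 lowest in both groups and replicate number 2 highest in both. The treated library held 43.1%, 59.6% and 26.7% of its untreated counterpart, so that Hp, like Saa3, was lower at all 3 numbers.

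The mean of Hp was 567 ± 296 normalised counts in untreated SFs and 276 ± 212 with amisulpride (SD, n = 3 each), and its log2 fold change was −1.28 ± 0.65 (SE, 95% interval −2.70 to 0.14). Without the block it passed neither threshold in limma (unadjusted p = 0.0721, adjusted p = 0.509). With the block the SE was 0.27 (95% interval −1.86 to −0.71), and Hp fell with an adjusted p of 0.0193. The value without amisulpride replicate 3 was −0.45 (adjusted p = 0.750 in limma). Within the block, leaving out number 3 gave −0.98 with an adjusted p of 0.0243, number 2 gave −1.55 with 0.0390, and number 1 gave −1.32 with 0.205.

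**Figure D1:**
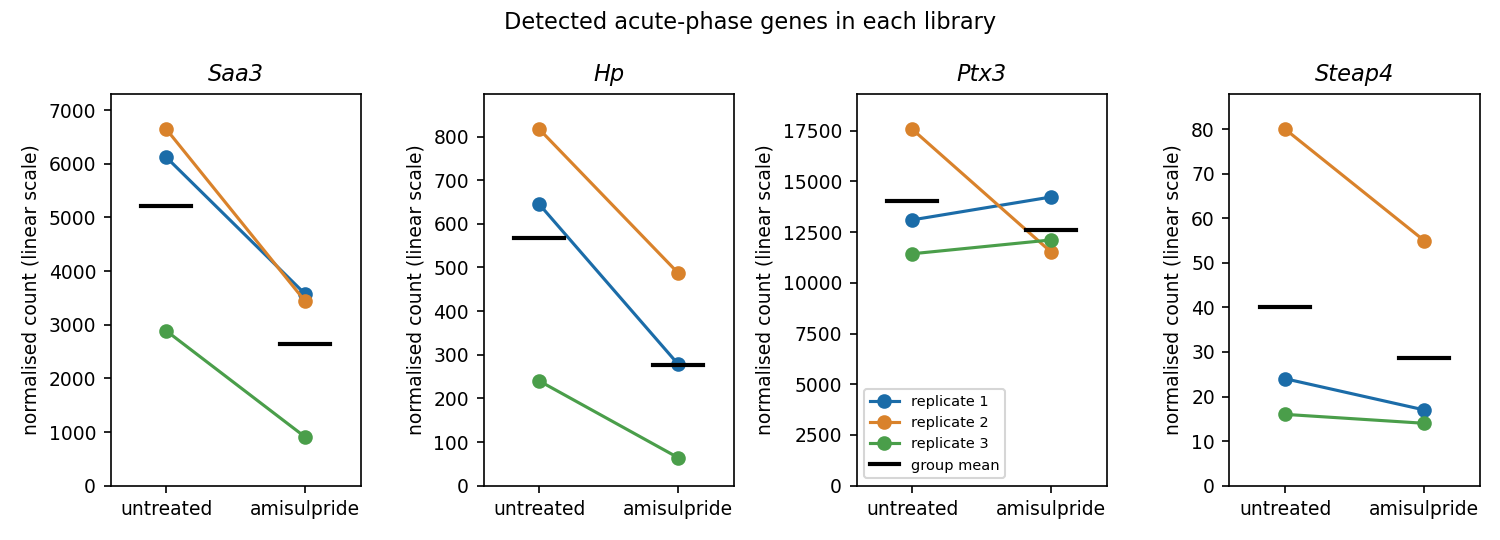
Normalised counts (linear scale, a separate axis for each gene) of the 4 tested genes in untreated and amisulpride-treated SFs, with a line joining libraries of the same replicate number and a black bar for each group mean. All 3 lines slope down for Saa3, Hp and Steap4, while for Ptx3 the line of replicate 2 alone does, from 17575 to 11513.

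Orm1 (ENSMUSG00000039196, chr4:63344560-63348163, plus strand) encodes orosomucoid, a lipocalin that carries drugs and lipids in plasma. It was at 0, 1 and 3 normalised counts in the untreated libraries and at 1, 0 and 0 in the treated ones, and no fold change is given. Of the 25-base words at its transcript end, 71.4% were shared with Orm2, which, like Orm3, was at 0 in all 6 libraries.

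Ptx3 (ENSMUSG00000027832, chr3:66219910-66225805, plus strand) encodes the long pentraxin PTX3, which binds the complement protein C1q and microbial surfaces and, in fibroblasts, is a target of TNF and IL-1. It was the most abundant of the 7 genes, ranking 20 among the 12614 genes by mean level and taking 0.269% to 0.459% of each library. The untreated replicates 1, 2 and 3 were at 13101, 17575 and 11432 normalised counts. The treated ones were at 14232, 11513 and 12115. The groups overlapped, and treated Ptx3 was higher than untreated at replicate numbers 1 and 3 and lower at 2.

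The group means of Ptx3 were 14036 ± 3176 and 12620 ± 1428 normalised counts (SD, n = 3 each). The log2 fold change was −0.14 ± 0.30 (SE, adjusted p = 0.897 in limma), and the 95% interval of −0.79 to 0.52 leaves room for a moderate change either way. The sign turned without untreated replicate 2, to 0.04. The gene Veph1 overlaps Ptx3 on the opposite strand, but at 8 to 52 normalised counts it was far below Ptx3.

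Steap4 (ENSMUSG00000012428, chr5:7960457-7982213, plus strand) encodes a metalloreductase that reduces iron and copper for uptake, and its expression is known to respond to TNF and IL-6. It was at 24, 80 and 16 normalised counts in the untreated replicates 1, 2 and 3 and at 17, 55 and 14 in the treated ones. Replicate number 2 was highest in both groups, and the spread within a group, 5-fold among untreated libraries and 3.93-fold among treated ones, was far larger than the difference between them. The treated library held 70.8%, 68.8% and 87.5% of the untreated one. The log2 fold change was −0.40 ± 0.63 (SE, 95% interval −1.78 to 0.99, adjusted p = 0.852 in limma), and with the block the 95% interval was −1.20 to 0.41. Without untreated replicate 2 the sign turned, to 0.26.

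Among the 4 tested members, 1 (Saa3) was past the study's thresholds on the lower side, where 3.01% of all tested genes were, and none of the 4 had an adjusted p under 0.05 in limma without the block, where 0.19% of all genes did on the lower side and 0.0951% on the higher. In the fit with the replicate block, 2 (Saa3 and Hp) had an adjusted p under 0.05 on the lower side, where 1.05% of all genes did. Lower levels at all 3 replicate numbers were seen for Saa3, Hp and Steap4, and for 17.8% of all genes tested. The median log2 fold change of the 4 was −0.76, against 0.00 over all tested genes.

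**Figure D2:**
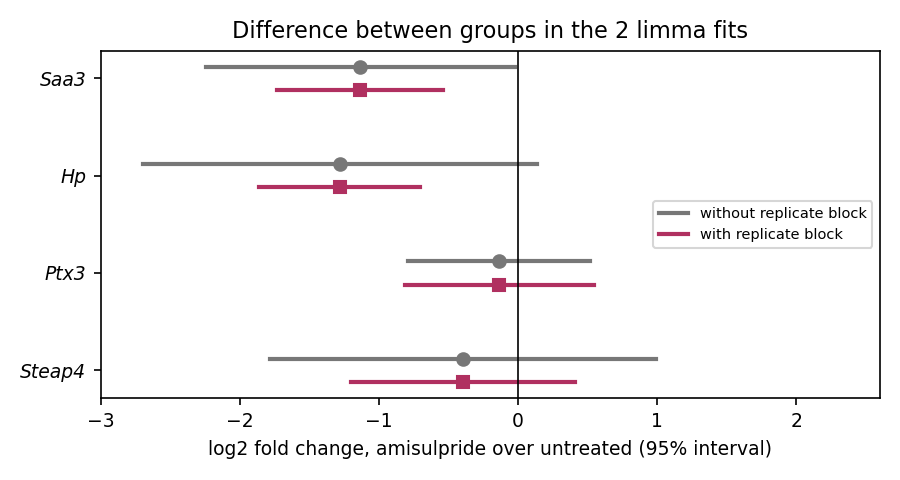
Log2 fold change of amisulpride over untreated (x axis) for the 4 tested genes, as points with 95% intervals, from limma without the replicate block (grey) and with it (red). The interval of Hp runs from −2.70 to 0.14 without the block and from −1.86 to −0.71 with it, while those of Ptx3 and Steap4 include 0 in both fits.

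Library by library, Saa3 and Hp followed each other more closely than the other pairs did. Over the 6 libraries the Pearson correlation of their log2 levels was 0.97, against 0.75 for Hp with Steap4 and 0.50 to 0.61 for the remaining pairs. These are descriptions over libraries that share their normalisation and replicate numbers. Among 11035 tested protein-coding genes, those whose pattern was most like that of Saa3 were Cntrl, A430105I19Rik and Orai3, each with a Pearson correlation of 0.99. For Hp they were Setmar, Poll and Ccdc149, also at 0.99 each. The closest to Ptx3 were Pcmtd2 (0.97), Ttc4 (0.95) and Gm4950 (0.94), and the closest to Steap4 were Gria3 (0.99), Cyth2 (0.98) and Relb (0.98). Relb encodes an NF-κB subunit. With only 6 libraries such values are common, and 238 genes had a correlation above 0.9 with Saa3, 181 with Hp, 48 with Steap4 and 17 with Ptx3.

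The other acute-phase genes past the study's thresholds or an adjusted p under 0.05 were higher with amisulpride, not lower. Of 28 listed, 12 could be tested and 10 were at 0 in every library. 4 of the 12 (Lcn2, Cp, Mt1 and Mt2) were past the study's thresholds on the higher side, where 2.69% of all tested genes were, and none on the lower side. With the block 5 were past them, all higher, where 3.18% of all genes were, the fifth being Serpina3n, a protease inhibitor gene (log2 fold change 1.01 ± 0.80 without the block, adjusted p = 0.139 with it in limma). The median log2 fold change of the 12 was 0.59.

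Lcn2 encodes lipocalin 2, which withholds iron from bacteria by binding their siderophores. It was at 35, 16 and 9 normalised counts in the untreated replicates and at 231, 361 and 159 in the treated ones, and the groups did not overlap, as was so for 7.80% of genes on the higher side. Its log2 fold change was 3.70 ± 0.46 (SE, adjusted p = 0.0130 in limma), which made it the single gene of this list to rise without the replicate block at that threshold. Its adjusted p without the block was 0.0830, 0.0922 and 0.0590 when untreated replicate 2, untreated replicate 3 or amisulpride replicate 2 was left out, 0.00330 without amisulpride replicate 3, and at most 0.00811 with the block and any replicate number left out. Cp encodes ceruloplasmin, a copper-carrying ferroxidase, and rose from 30, 25 and 35 to 57, 83 and 98 normalised counts. Its log2 fold change was 1.35 ± 0.33 (adjusted p = 0.117 in limma, and 0.0403 with the block, then 0.161, 0.281 and 0.0308 without replicate numbers 1, 2 and 3). Cp shares its locus with Hps3 on the opposite strand, at 11 to 28 normalised counts.

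Mt1 and Mt2 encode metallothioneins, which bind zinc and copper. Mt2 was at 3023, 8865 and 3609 normalised counts in the untreated replicates and at 7976, 14394 and 26484 in the treated ones, with untreated replicate 2 above treated replicate 1. The log2 fold change of Mt2 was 1.66 ± 0.49 (adjusted p = 0.209 in limma, and 0.0248 with the block, then 0.198, 0.0102 and 0.0852 without replicate numbers 1, 2 and 3). That of Mt1 was 1.25 ± 0.34 (adjusted p = 0.180 in limma, and 0.0526 with the block), and 0.997 without untreated replicate 3, just under the study's threshold. With the block and without replicate number 3 it was 0.78. Lbp, which hands bacterial lipopolysaccharide to CD14, was at 343, 547 and 194 normalised counts without the drug and at 913, 1185 and 191 with it, and did not pass (adjusted p = 0.656 in limma, and 0.162 with the block). The complement genes C3 and Cfb had log2 fold changes of −0.29 and −0.28 and did not pass either. Il1rn, the decoy ligand of the IL-1 receptor, was at 4877, 6529 and 4234 untreated and 3515, 1828 and 2697 treated. These groups did not overlap, as was so for 8.66% of genes on the lower side. The log2 fold change of Il1rn was −0.99 ± 0.31 (unadjusted p = 0.00806, adjusted p = 0.241 in limma, and 0.113 with the block). In size it fell just short of the study's threshold of 1.

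**Figure D3:**
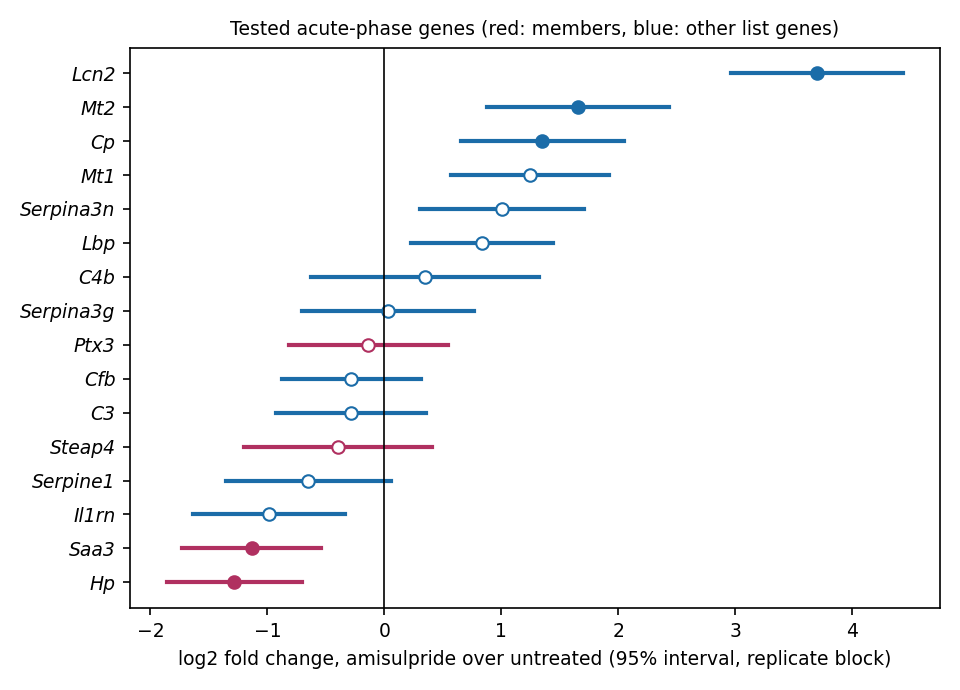
Log2 fold change of amisulpride over untreated (x axis) with 95% intervals from limma with the replicate block, for the 4 tested members (red) and the 12 other tested acute-phase genes (blue). Filled points have an adjusted p under 0.05 in that fit. Hp (−1.28) and Saa3 (−1.13) are lowest, and Lcn2 (3.70) is highest.

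Of 11 cytokine genes able to induce acute-phase proteins, 6 were tested. Past the study's thresholds were 2, both on the lower side, where 3.01% of all tested genes were. Il11, whose product signals through gp130, was at 27, 25 and 38 normalised counts in untreated SFs and at 6, 3 and 16 with amisulpride. The 3, in amisulpride replicate 2, was below the worth of 3 reads in that library (4.02). The groups did not overlap, as was so for 8.66% of genes on the lower side, and the log2 fold change was −1.97 ± 0.57 (unadjusted p = 0.00522, adjusted p = 0.208 in limma, and 0.0532 with the block). With 5 added to each count in place of 1, and without the block, it was −1.49. Without amisulpride replicate 3 and without the block it was −2.53, with an adjusted p of 0.0410, and leaving out any other library gave adjusted p values of 0.275 to 0.601. Mouse Tnf went from 27, 16 and 16 to 10, 7 and 7, with a log2 fold change of −1.17 ± 0.49 (unadjusted p = 0.0336, adjusted p = 0.405 in limma), and without the block it stayed past the study's thresholds only when amisulpride replicate 1 was the library left out (−1.33). Treated Il11 and Tnf were mostly under 10 normalised counts, so both met the filter for testing through the untreated libraries.

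Il6, the main hepatic inducer, was at 36, 32 and 9 normalised counts in the untreated replicates and at 16, 13 and 4 in the treated ones. Replicate number 3 was again lowest in both groups. Il6, at 4 there with amisulpride, was below the worth of 3 reads in that library (5.37 normalised counts). Its log2 fold change of −1.12 ± 0.64 passed no threshold in limma without the block (unadjusted p = 0.110, adjusted p = 0.573). With the block it passed the study's thresholds (unadjusted p = 0.0324), as 3.43% of all genes did on the lower side, and not the adjusted one (adjusted p = 0.283). Without amisulpride replicate 3 and without the block it was −0.58. Lif, of the same cytokine family, had a log2 fold change of 0.15 ± 0.32.

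None of the 10 tested cytokine receptor genes was past the study's thresholds. Il6st, which encodes gp130, differed by 0.00 ± 0.24 on the log2 scale, Osmr, the oncostatin M receptor subunit, by 0.60 ± 0.25, and Il1r1 by 0.54 ± 0.36. Nor did any of the 12 tested transcription factor genes pass. Cebpb, which encodes a C/EBP factor, was at 458, 386 and 308 normalised counts without the drug and at 300, 220 and 213 with it. These groups did not overlap, as was so for 8.66% of genes on the lower side. The log2 fold change of Cebpb was −0.65 ± 0.26 (adjusted p = 0.382 in limma). Its relative Cebpd was at 637, 797 and 468 without the drug and at 845, 806 and 895 with it. Those groups did not overlap either, but on the higher side, as was so for 7.80% of genes. The log2 fold change of Cebpd was 0.45 ± 0.26. On the same scale Stat3 was at −0.04 ± 0.26, Nfkb1 at 0.28 ± 0.35 and Nfkbiz, an NF-κB cofactor of the acute-phase response, at −0.03 ± 0.42.

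The 7 feedback inhibitors and 9 tested binding partners and receptors of the encoded proteins held no gene past the study's thresholds. Socs3, the STAT3-induced inhibitor of gp130 signalling, had a log2 fold change of −0.41 ± 0.40. Cd163, the haptoglobin–haemoglobin scavenger receptor of macrophages, was at 0 in all 6 libraries. Among 12 relatives of the members by gene family, 5 were tested. Past the study's thresholds were 2, both on the higher side, where 2.69% of all tested genes were. Beside Lcn2, a lipocalin like Orm1, Steap3 was past the study's thresholds, at 35, 22 and 20 normalised counts untreated and 60, 66 and 45 treated (log2 fold change 1.14 ± 0.35, adjusted p = 0.230 in limma), and without untreated replicate 3 it was at 0.99, under the threshold, as it was with the block and without replicate number 2 (0.95). Its paralogs Steap1 and Steap2 had log2 fold changes of −0.38 and −0.20 and did not pass.

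Taking these lists as 1 group, 7 of 60 tested genes were past the study's thresholds, 5 higher and 2 lower, where 5.70% of all tested genes were. In the fit with the block 3 (Lcn2, Cp and Mt2) had an adjusted p under 0.05, all higher, where 1.03% of all genes did. The median log2 fold change of the 60 was −0.04.

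Markers of other cell types that make these proteins were read in the same libraries. The 14 fibroblast markers, all detected, summed to 51993 to 75677 normalised counts untreated and 62375 to 113315 treated. Most of that came from Col1a1, Col1a2, Col3a1, Fn1 and Vim, and single markers went both ways. Col1a1, Col1a2, Col3a1 and Fn1 were higher at all 3 numbers, as were 16.9% of all tested genes. Lum, Pdpn and Prg4 were lower at all 3, as were 17.8% of all tested genes. Only Lum passed the study's thresholds, and only with the block (−1.07, unadjusted p = 0.00149 in limma), as 3.43% of all genes did on the lower side. For Lum no fit without replicate number 3 is given. Of 16 hepatocyte markers 9 were at 0 everywhere, Apoa1 among them, and Alb was at 0 in 5 libraries and at 2 in the other. The sums were 143 to 165 untreated and 107 to 187 treated. Nearly all of that came from Cyp2e1 and Serpina1a, the only 2 of the 16 that could be tested.

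Macrophages make Saa3, and their 12 markers were all detected in at least 1 library. Their sums, most of which came from the lysozyme gene Lyz2, were 5247, 2696 and 3266 in the untreated replicates and 4845, 2551 and 2629 in the treated ones, but single markers went both ways. Of the 11 tested, 2 were past the study's thresholds, both lower, where 3.01% of all genes were. With the block 4 were, all lower, where 3.43% of all genes were. Cd14, which encodes a lipopolysaccharide co-receptor, was at 121, 69 and 76 normalised counts untreated and 47, 25 and 13 treated. Its log2 fold change was −1.74 ± 0.44 (adjusted p = 0.144 in limma), and with the block it fell with an adjusted p of 0.0120, which became 0.155, 0.0344 and 0.00759 without replicate numbers 1, 2 and 3. Csf1r, the CSF-1 receptor gene, was at 114, 93 and 76 untreated and 41, 23 and 100 treated, higher at number 3. Its log2 fold change of −1.01 ± 0.46 (adjusted p = 0.456 in limma) stayed past the study's thresholds without amisulpride replicate 3 (−1.57) and not without any other library. Cx3cr1 and Ptprc, the gene for CD45, were the other 2 with the block. Cx3cr1 was at 69, 45 and 47 untreated and 62, 12 and 18 treated (log2 fold change −1.10 ± 0.52, adjusted p = 0.172 in limma with the block). Ptprc was at 38, 12 and 18 and then 23, 5 and 5, the last below the worth of 3 reads (5.37). Its log2 fold change was −1.16 ± 0.66 (adjusted p = 0.297 in limma with the block). Adgre1, the F4/80 gene, was at 39, 25 and 14 untreated and 59, 43 and 32 treated, and Cd68 at 210, 119 and 144 and then 219, 122 and 256. Both were higher at all 3 numbers, as were 16.9% of all tested genes, and neither was past the thresholds. Adipocytes make Hp, and their 12 markers summed to 346 to 393 untreated and 197 to 293 treated, with Adipoq, Cidec, Cfd and Lep at 0 in all libraries. Most of that sum was Fabp4, at 303, 309 and 324 untreated and 128, 187 and 229 treated (log2 fold change −0.82 ± 0.27, adjusted p = 0.261 in limma). The Fabp4 groups did not overlap, as was so for 8.66% of all tested genes on the lower side. Pparg, the adipocyte transcription factor gene, was too scarce to be tested and was higher at all 3 numbers, at 5, 1 and 4 and then 6, 11 and 23. The 10 neutrophil markers, of which 4 were at 0 everywhere, summed to 1156 to 1647 and 964 to 1679. Most of that was Elane, at 1057, 1543 and 1173 and then 875, 1610 and 1081. The cathelicidin gene Camp alone of the 10 was past the study's thresholds, as 3.01% of all tested genes were on the lower side. It was at 46, 51 and 31 and then 19, 27 and 5 (log2 fold change −1.51 ± 0.55, adjusted p = 0.315 in limma). The 5, in amisulpride replicate 3, was below the worth of 3 reads in that library (5.37). Camp was no longer past the study's thresholds without untreated replicate 1 (−1.45), untreated replicate 2 (−1.37) or amisulpride replicate 3 (−0.85). The 8 endothelial markers, of which 2 were at 0 everywhere, summed to 77 to 98 and 27 to 67. Most of that was Egfl7, at 66, 84 and 78 and then 50, 59 and 25. No endothelial marker was past the study's thresholds. The part of these cell types in the lower Saa3 and Hp was not tested.

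**Figure D4:**
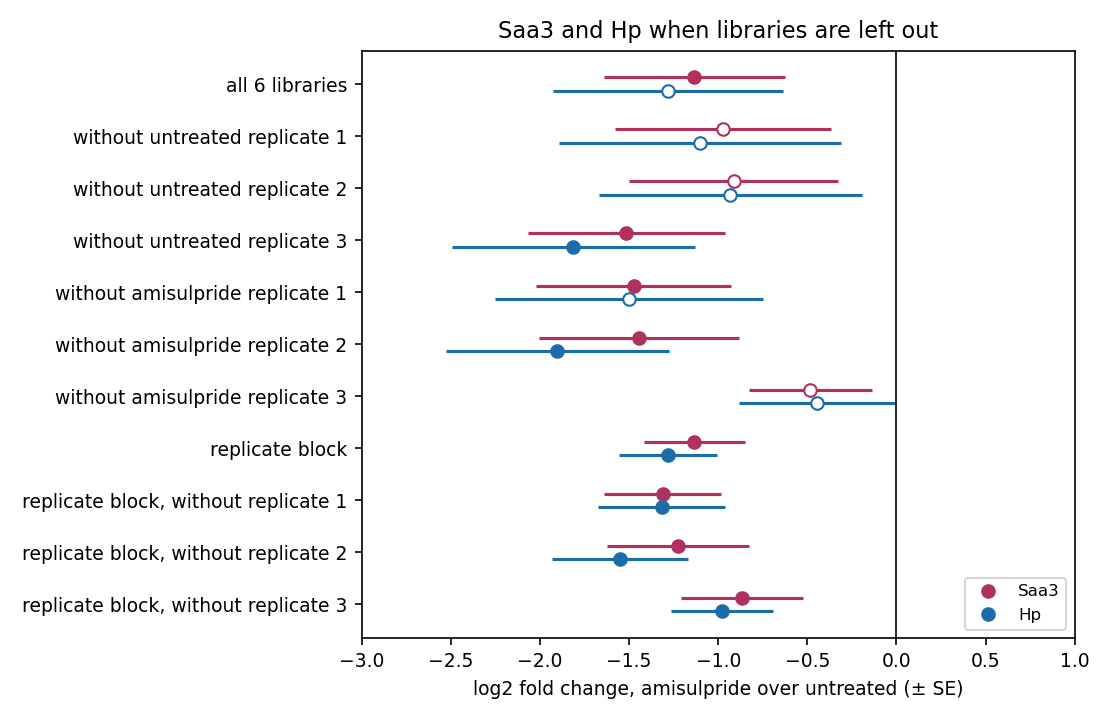
Log2 fold change of amisulpride over untreated (x axis, ± SE) of Saa3 (red) and Hp (blue) with all libraries, without each library in turn, and with the replicate block with and without each replicate number. Filled points have an unadjusted p under 0.05 in limma. All values lie below 0, the smallest in size being −0.48 for Saa3 and −0.45 for Hp without amisulpride replicate 3.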

How the data were processed

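RNA was profiled by 3′ mRNA sequencing (QuantSeq libraries, Ion Proton) in 3 biological replicates per group. According to the study's methods and the submitters' processing notes, reads were mapped to mm10 with TopHat2 and then Bowtie2, counted per gene with GenomicRanges, and normalised with DESeq through metaseqr; versions are not given in the sources used here. The deposited values are normalised counts that the authors rounded to whole numbers, so they were treated as a score and no count model was fitted. The worth of 1 read was estimated from gaps in each library's values; for untreated replicate 1 the estimate is uncertain. Not used were 12 other per-sample columns, 6 mean columns and 4 columns holding the authors' own fold changes and tests.

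Genes at 10 or more normalised counts in at least 3 of 6 libraries (12614) were tested on log2(value + 1) with limma 3.58.1 (R 4.3.3), with a mean-variance trend and Benjamini-Hochberg adjustment. The script was tested on simulated data. Tables were prepared with Python 3.11.15. The limit of 3 reads for a gene with no read covers counting error only. Whether the 3 cultures came from separate mice is not stated, so p-values measure the spread between these cultures.

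Same-numbered libraries deviated from their group means together (correlations 0.229, 0.240 and 0.201, each the highest for both libraries), so the numbers were taken to pair the samples. The pairing comes from the data, since the labels give only the number. The members and lists were chosen with earlier results of these data known. Named are all members, list genes (marker lists included) past the study's thresholds, 11 pathway genes fixed by name, and the 3 protein-coding genes with the highest correlation with each tested member. Lbp, Serpina3n, C3, Cfb, Il1rn, Steap1, Steap2, Cd163 and the other marker genes named were added after their values were seen. Alternatives were pseudocount, filter, scaling, trend, library weights, the replicate block and leaving out libraries.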

Additional observations from a re-analysis of the deposited data

How the results depend on the processing

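Without the replicate block 1 member passed the study's thresholds. That number was 2 with no filter on low values, 0 with sample weights, 0 with no mean-variance trend and 2 with the block, and it stayed at 2 when the block was combined with quantile normalisation, median centring, no trend, weights or a pseudocount of 5. It ran from 0 to 2 when libraries were left out, with or without the block, and with the block it was 0 without replicate 3. Members with an adjusted p under 0.05 were 0 without the block and 2 with it (2 also with quantile normalisation, median centring, weights or a pseudocount of 5), 0 with the block and no trend, and 0 to 1 with the block and 1 replicate number left out. Saa3 was at −0.64 with sample weights and −1.13 without the trend, no longer past an unadjusted p of 0.05 in either (adjusted p = 0.539 and 0.540 in limma), and from −1.52 to −0.48 without 1 library (−1.31 to −0.87 with the block). Hp passed an unadjusted p of 0.05 at −1.28 with no filter and with the block, and, with the block, at −1.28 with quantile normalisation, −1.29 with median centring, −1.28 with no trend (adjusted p = 0.134), −1.13 with weights and −1.26 with a pseudocount of 5. Without 1 library it ran from −1.90 to −0.45 (−1.55 to −0.98 with the block, and −1.32 there without replicate 1).

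Signs turned only for genes that passed no test. Without 1 library Ptx3 ran from −0.27 to 0.038, Steap4 from −0.99 to 0.26, Il6st from −0.10 to 0.078, Lif from −0.031 to 0.44, Nfkb1 from −0.055 to 0.60, Nfkbiz from −0.45 to 0.43 and Stat3 from −0.26 to 0.069. With the block and 1 replicate number left out Ptx3 ran from −0.26 to 0.10, Il6st from −0.17 to 0.12, Lif from −0.092 to 0.61 (−0.057 without replicate 1), Nfkb1 from −0.19 to 0.79, Nfkbiz from −0.19 to 0.25 and Stat3 from −0.36 to 0.13 (0.11 without replicate 2). Il6st was at −0.065 with quantile normalisation and −0.0073 with median centring, with and without the block, Nfkbiz at 0.25 with weights and 0.083 with weights and the block, and Lif at −0.042 with weights and the block.

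List genes past the study's thresholds numbered 7, but 12 with weights, 7 to 11 without 1 library and 6 to 12 with the block and a number left out. Those with an adjusted p under 0.05 numbered 1, but 2 with weights, 3 with the block (5 with quantile normalisation, 3 with median centring, 6 with weights, 5 with a pseudocount of 5), 0 to 2 without 1 library and 1 to 6 with the block and a number left out. Over all genes, adjusted calls numbered 36, but 57 with a pseudocount of 5, 57 with no filter, 66 with quantile normalisation, 195 with weights, 0 to 120 without 1 library and 263 with the block (344, 260, 68, 440 and 293 with quantile normalisation, median centring, no trend, weights and a pseudocount of 5, and 15 to 467 with a number left out, being 97 without replicate 2). Genes past the study's thresholds numbered 719, but 1313 with no filter and 462 with a minimum of 30. The block combined with another choice was added after seeing the data. The block changed the call of Saa3, Hp, Cp, Mt2 and Cd14 at an adjusted p of 0.05. At the study's thresholds it changed that of Hp, Il6, Serpina3n, Cx3cr1, Ptprc, Lum and Ccdc149, and of no other named gene. Il11 had an adjusted p under 0.05 with sample weights (0.0317) and with the block combined with quantile normalisation (0.0423), weights (0.0126) or a pseudocount of 5 (0.0410). At this depth Saa1, Saa2 and Orm1 could not be compared.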
